A study of Mus musculus with 8 samples.

Results

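The MHC class II presentation genes are 8 of the 32285 genes counted in a single-nucleus RNA sequencing study of mouse liver: H2-Aa, H2-Ab1, H2-Eb1, Cd74, Ciita, H2-DMa, H2-DMb1 and H2-Oa. They were chosen by symbol, from what the genes are known to do, and all 8 symbols matched a single gene in the deposited files. The 8 genes together gave 40941 unique molecular identifiers (UMIs, the tags that count captured RNA molecules) in 79446 nuclei. Cd74 gave 14642 of them, H2-Ab1 6905, H2-Aa 6818, H2-Eb1 6458, H2-DMa 2484, Ciita 1846, H2-DMb1 1685 and H2-Oa 103.

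MHC class II molecules are cell-surface dimers of an alpha and a beta chain that show peptides from taken-up protein to CD4+ T cells. H2-Aa and H2-Ab1 encode the chains of I-A, and H2-Eb1 encodes the beta chain of I-E. Cd74, the invariant chain, fills the peptide groove during assembly and guides the dimer to the endosome, where H2-DM, the dimer of the H2-DMa and H2-DMb1 products, exchanges the Cd74 remnant for peptide. H2-Oa encodes the alpha chain of H2-O, an inhibitor of H2-DM found mainly in B cells. Ciita, the class II transactivator, is a co-activator that the other genes of the set depend on. It is recruited to a conserved promoter module of an X box, bound by the RFX complex, and a Y box, bound by NF-Y. In the liver, dendritic cells and B cells are the classical class II-positive cells, and Kupffer cells (the resident macrophages), monocyte-derived macrophages and sinusoidal endothelial cells can carry class II as well.

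Livers came from 8 male DIAMOND mice, a cross of the strains that the labels write as 129A1/SvIm and C57BL/6J. In this model fatty liver disease and liver tumours develop on a Western diet (WD) of high-fat food and water with fructose and glucose. The WD tumour group (n = 3 mice) stayed on WD for 48 weeks and had hepatocellular carcinoma (HCC). After 36 weeks of WD the other 5 mice went back to standard chow (the reverse diet of the labels, RD). Of these, 2 had HCC (RD tumour) and 3 had no detectable HCC (RD no tumour). Every mouse therefore had at least 36 weeks of WD, and no group fed chow throughout was analysed here. WD tumour against RD tumour compares diets among tumour-bearing mice, RD tumour against RD no tumour compares tumour states after reversal, and WD tumour against RD no tumour differs in both. The labels give 48 weeks as the age at the end, which cannot hold together with the start of the diets in the series text, so age is not used. Each mouse gave 1 library from snap-frozen liver, and the labels do not say whether the piece held tumour tissue.

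The X and Y box module can be read in the promoter sequences, which are shown here because it is the feature through which Ciita acts. In the RefSeq promoter windows of build GRCm38.p6, the 250 bases before the annotated start of 5 members (6 windows, as H2-DMa has 2 starts) were searched on both strands for an X box core, GNAACNG, and a Y box core, ATTGG. A composite match was an X core with a Y core starting 20 to 45 bases after its start on the same strand, so that the cores of a composite do not overlap. H2-Eb1 holds a composite at chr17:34305617-34305866 (plus strand), with the X core starting 91 bases before the gene and the Y core 32 bases after the start of the X core. H2-DMb1 also holds one, with the X core 94 bases before the RefSeq start and the Y core 33 bases after that of the X core. Only 30 bases around its X core are shown, chr17:34153093-34153122 (plus strand), beside the same stretch of H2-Eb1, chr17:34305772-34305801. H2-Aa, at chr17:34287824-34288073 on the minus strand, holds a Y core and no match to the X core letters. A stretch before that Y core differs from the X core letters only at the last position. Capitals mark both cores of the composite in H2-Eb1, the X core in the short stretches and the Y core in H2-Aa. All sequences run 5′ to 3′ on the gene's strand.
H2-Eb1 promoter: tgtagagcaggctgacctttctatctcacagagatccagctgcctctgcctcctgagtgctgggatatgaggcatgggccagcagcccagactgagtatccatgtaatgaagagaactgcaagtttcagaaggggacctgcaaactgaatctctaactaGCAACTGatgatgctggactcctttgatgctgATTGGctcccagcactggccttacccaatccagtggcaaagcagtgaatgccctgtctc
H2-Aa promoter: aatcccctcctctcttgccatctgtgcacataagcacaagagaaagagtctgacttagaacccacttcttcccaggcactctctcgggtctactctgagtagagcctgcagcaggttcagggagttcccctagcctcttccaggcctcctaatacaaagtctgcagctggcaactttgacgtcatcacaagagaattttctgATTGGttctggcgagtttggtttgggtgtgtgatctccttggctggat
H2-Eb1 X core: actaGCAACTGatgatgctggactcctttg
H2-DMb1 X core: cctaGTAACTGatgatgctaggctgattca
Among 32851 RefSeq windows of the same length, 35.9% held the X core, 33.8% the Y core and 1.11% (365 windows) the composite. Of the other member windows, that of H2-Oa and 1 of the 2 of H2-DMa held a Y core, and the second of H2-DMa held neither. A match describes the letters and is not a measured binding site, and the lack of a match does not show that a box is absent.

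H2-Aa and 5 other members lie within the MHC on chromosome 17 of GRCm38 in the GENCODE M21 annotation, all protein coding. H2-Oa spans chr17:34092340-34095234, H2-DMa chr17:34119541-34139101, H2-DMb1 chr17:34153072-34160230, H2-Ab1 chr17:34257689-34269419 and H2-Eb1 chr17:34305867-34316674, all on the plus strand, while H2-Aa spans chr17:34282744-34287823 on the minus strand. Cd74 (chr18:60803848-60812652) and Ciita (chr16:10480059-10528418) lie outside the complex, both on the plus strand.

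The 8 libraries held between 17948627 UMIs (WD tumour 1) and 34363108 (RD tumour 1). Of 80575 barcodes, 79446 with at least 300 detected genes were kept. RD tumour 1 stood apart. It had exactly 20000 barcodes, its log2 profile correlated with the other libraries at 0.798 to 0.883 (0.919 or more among the other 7), and 63.2% of its nuclei were gated as neutrophil-like, against 16.2% in RD no tumour 1. Its neutrophil marker genes summed to 2752 UMIs per 1000000 UMIs of the library (counts scaled this way are CPM below), against 725 in RD no tumour 1 and 16.5 to 147 in the other 6 mice. Median mitochondrial shares were 7.91% in WD tumour 1 and 7.51% in WD tumour 3, and 1.30% to 3.28% in the rest. No more than 0.676% of the barcodes of the smaller library were shared between any pair of libraries. Comparisons with the RD tumour group rest in part on it, and values without it are given beside them.

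Summed over whole libraries, class II RNA was highest in WD tumour 1 and lowest in RD no tumour 3. The 8 genes together made up 313, 224 and 245 CPM in WD tumour 1 to 3, 212 and 198 CPM in RD tumour 1 and 2, and 234, 146 and 45.2 CPM in RD no tumour 1 to 3. The 3 RD no tumour mice thus spread over most of the range of the study, and RD no tumour 1 lay among the WD tumour mice.

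For Ciita, the transactivator, the level was 14.8, 12.04 and 12.9 CPM in WD tumour 1 to 3, 1.16 and 10.7 CPM in RD tumour 1 and 2, and 12.4, 7.86 and 3.76 CPM in RD no tumour 1 to 3. RD tumour 1 was the lowest mouse, 12.7-fold below WD tumour 1, although its chain values were close to those of RD tumour 2. The 3 WD tumour mice were above both RD tumour mice and overlapped the RD no tumour group.

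H2-Aa stood at 55.2, 36.7 and 47.2 CPM in the WD tumour mice, 31.9 and 33.5 CPM in the RD tumour mice, and 39.3, 22.2 and 5.78 CPM in RD no tumour, the mice being in the order of their numbers here and below. H2-Ab1 stood at 58.2, 40.4 and 44.0 CPM in the WD tumour mice, 31.4 and 32.6 CPM in the RD tumour mice, and 37.5, 26.4 and 6.71 CPM in RD no tumour. H2-Eb1 stood at 54.4, 33.6 and 42.1 CPM in the WD tumour mice, 28.3 and 32.6 CPM in the RD tumour mice, and 36.6, 26.7 and 4.91 CPM in RD no tumour. All 3 chains were higher in every WD tumour mouse than in either RD tumour mouse, and only H2-Ab1 was also higher in every WD tumour mouse than in every RD no tumour mouse. Their lowest value was that of RD no tumour 3, between 8.67-fold (H2-Ab1) and 11.1-fold (H2-Eb1) below WD tumour 1.

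Cd74, the invariant chain, stood at 111, 79.0 and 83.1 CPM in the WD tumour mice, 86.1 and 70.7 CPM in the RD tumour mice, and 82.6, 48.7 and 13.5 CPM in RD no tumour. Its groups overlapped in every comparison, and the highest mouse was 8.23-fold above the lowest. The peptide exchange genes varied less. H2-DMa stood at 9.97, 12 and 8.09 CPM in the WD tumour mice, 20.2 and 11.3 CPM in the RD tumour mice, and 12.4, 8.96 and 8.38 CPM in RD no tumour, a 2.50-fold range with RD tumour 1 at the top. H2-DMb1 stood at 8.92, 9.55 and 7.08 CPM in the WD tumour mice, 12.5 and 5.99 CPM in the RD tumour mice, and 12.7, 4.99 and 1.93 CPM in RD no tumour. Neither gene of H2-DM separated any pair of groups. H2-Oa was rare, with 5 to 27 UMIs a library and 0.221 to 0.992 CPM.

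**Figure D1:**
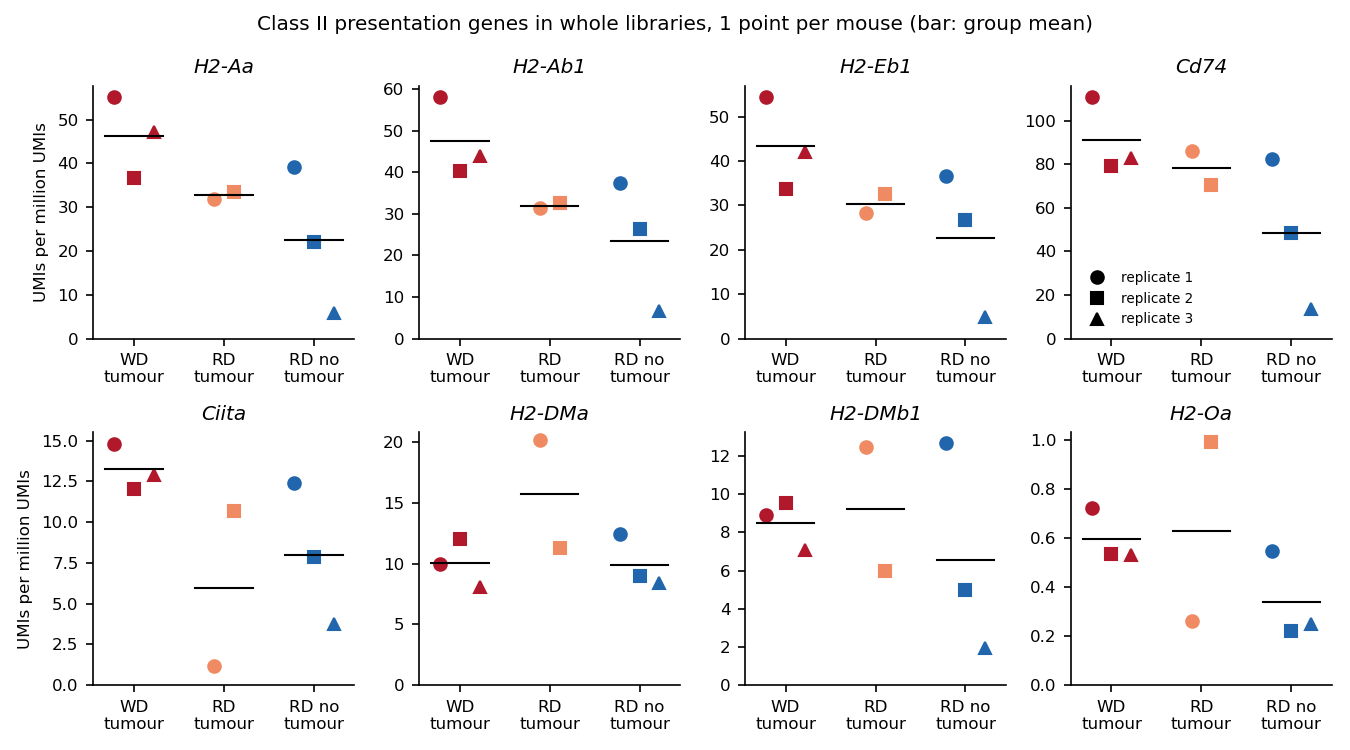
Each panel plots 1 of the 8 genes in whole libraries, in CPM (vertical axis, from 0) for the 3 groups, with 1 point per mouse, a shape per replicate number and a bar at the group mean. H2-Ab1 is higher in every WD tumour mouse than in any other mouse, and Ciita is lowest in RD tumour 1, at 1.16.

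Between groups, none of the 8 genes passed the test in whole libraries. The test was edgeR's quasi-likelihood test on the 8 mice, its p-values adjusted by Benjamini-Hochberg over all genes tested, and 0 of 19078 genes were called at 0.05 in each of the 3 comparisons (0% of genes, with 524 to 1442 at an unadjusted p under 0.05, none of them members). DESeq2 called 36, 64 and 109 genes in WD tumour against RD no tumour, RD tumour against RD no tumour and WD tumour against RD tumour, and no member. Mean H2-Ab1 (± SD) was 47.5 ± 9.42 CPM over the WD tumour mice (n = 3), 31.98 ± 0.860 CPM over the RD tumour mice (n = 2) and 23.5 ± 15.6 CPM over the RD no tumour mice (n = 3). Against RD no tumour, WD tumour H2-Ab1 was 1.01 higher on the log2 scale (standard error, SE, 0.52, edgeR adjusted p = 1.00), and it was 0.58 without RD no tumour 3. It was the only member of 8 whose groups did not overlap in that direction, which 6.85% of all genes also did. In this whole-library comparison 7 of the 8 members had positive fold changes, with a median of 0.85, against -0.01 over all genes. A whole-library level cannot tell more class II-positive cells from more RNA per cell. Nothing says that mice were processed in separate batches, and p-values measure the spread between these mice.

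WD tumour against RD tumour set 4 of 8 members apart without overlap, all higher in WD tumour, against 10.4% of all genes. Ciita was 1.23 higher on the log2 scale (SE 0.82, edgeR adjusted p = 0.606), with means of 13.3 ± 1.42 CPM (SD, n = 3) and 5.93 ± 6.74 CPM (SD, n = 2). That value rests on RD tumour 1: it was 0.39 without that mouse and 3.49 with RD tumour 1 as the only RD tumour mouse. In both fits the lone RD tumour mouse was assumed to vary like the others. For the chains the differences were 0.60 for H2-Ab1 (SE 0.58, edgeR adjusted p = 0.693), 0.53 for H2-Aa (SE 0.63, adjusted p = 0.739) and 0.55 for H2-Eb1 (SE 0.67, adjusted p = 0.749), and without RD tumour 1 they were 0.63, 0.55 and 0.50. Cd74 and the H2-DM genes overlapped. The median over the members was 0.38, and it was 0.48 without RD tumour 1 and -0.15 when only nuclei with at most 5% mitochondrial UMIs were used.

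RD tumour against RD no tumour separated no member. The median member difference was 0.51 on the log2 scale, with 7 of 8 positive. Without RD no tumour 3, the mouse with the lowest level of 5 members, the median was 0.12, and without RD tumour 1 it was 0.41. Ciita was the exception in sign, with means of 5.93 ± 6.74 CPM in RD tumour (SD, n = 2) and 8.01 ± 4.33 CPM over the RD no tumour mice (SD, n = 3).

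Which nuclei carried the RNA was read with a marker gate that uses no class II gene. A nucleus was assigned to a class when at least 2 different markers of that class had a UMI and no other class had as many. The 10 classes used 69 markers, and nuclei with no marker of any class served as a reference. The gate has no hepatocyte class, so these nuclei can be hepatocyte nuclei, shallow nuclei or carriers of RNA that is free in the suspension, which were not told apart. A list of 6 hepatocyte genes made up 1.05 to 4.72% of their UMIs, against 1.29 to 2.59% in whole libraries. The gate named 4261 Kupffer-like, 884 monocyte-like, 173 lipid-associated macrophage-like, 117 dendritic-like, 767 B-like, 10768 endothelial-like and 14709 neutrophil-like nuclei, and left 8395 with no marker and 32143 ambiguous or with a single marker. Classes were compared in mice with at least 20 nuclei. The dendritic-like class rests mainly on Wdfy4, with 66.9% of its marker UMIs, beside Flt3 (15.0%) and Clec9a (13.7%). Chil3 and F13a1 made up 38.5% and 28.3% of the marker UMIs of the monocyte-like class. Doublets were not removed beyond the gate.

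Dendritic-like and B-like nuclei had the highest class II levels, followed by monocyte-like and Kupffer-like nuclei. The 8 genes summed to 927 to 4801 CPM in the dendritic-like nuclei of 7 mice (2 to 31 nuclei a mouse, and 0 UMIs in the 2 nuclei of RD tumour 1). They summed to 534 to 1902 CPM in B-like nuclei (7 mice), 125 to 2464 in monocyte-like nuclei (7 mice with at least 20 nuclei), 68.7 to 851 in Kupffer-like nuclei and 49.7 to 267 in endothelial-like nuclei (8 mice each). In nuclei with no gate marker the same sum was 29.4 to 384 CPM. Class II UMIs were thus present in every class, also in T/NK-like nuclei (36.0 to 395 CPM with RD tumour 1, which had 9 such nuclei), which do not normally make class II in the mouse.

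**Figure D2:**
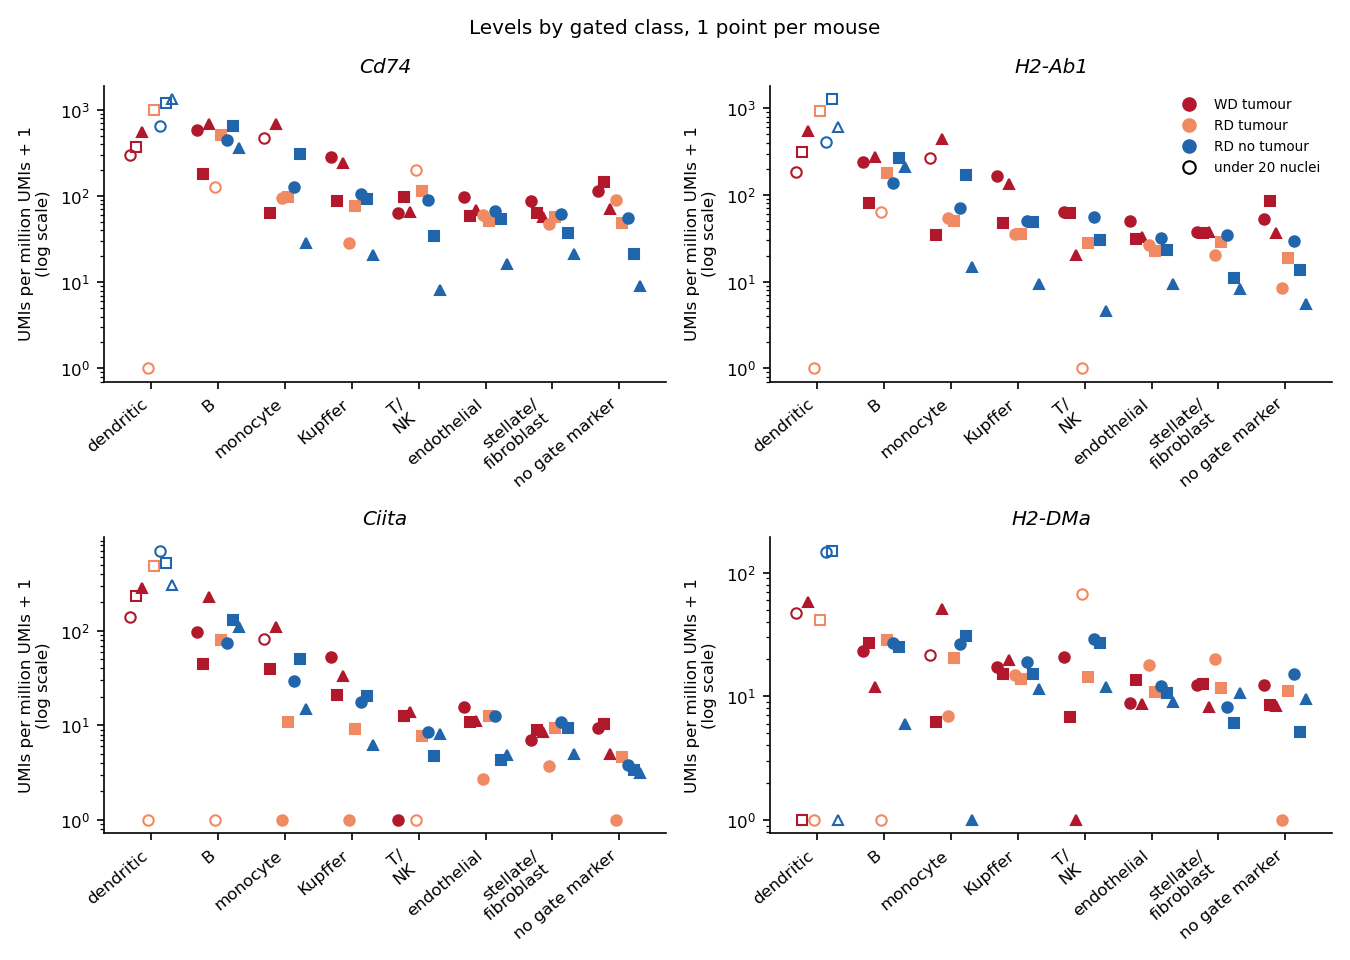
Levels of Cd74, H2-Ab1, Ciita and H2-DMa in 8 gated classes, in CPM plus 1 on a log axis, with 1 point per mouse, a colour per group, a shape per replicate number and open points for mice with fewer than 20 nuclei of the class. Dendritic-like and B-like nuclei lie highest for Cd74, H2-Ab1 and Ciita, and endothelial-like and stellate/fibroblast-like nuclei lie within the range of nuclei with no marker for Cd74 and H2-Ab1 but reach above it for Ciita (14.5 and 9.80 against 9.28 CPM) and H2-DMa (16.8 and 19.2 against 14.2 CPM).

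B-like nuclei had a higher mean level of every member than nuclei with no gate marker. Cd74 stood at 589, 181 and 691 CPM in WD tumour, 513 in RD tumour 2, and 445, 641 and 360.1 in RD no tumour, where nuclei with no gate marker of the same mice had 8.04 to 143. Ciita stood at 96.9, 43.7 and 225 CPM in WD tumour, 78.2 in RD tumour 2, and 74.2, 130.1 and 110.0 in RD no tumour, against 2.16 to 9.28 in nuclei with no marker. RD tumour 1 had 7 B-like nuclei and is left out. WD tumour 2 was the lowest of the 7 mice for both genes.

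Among the chains, B-like H2-Aa stood at 239, 87.4 and 252 CPM in WD tumour, 221 in RD tumour 2, and 177, 318 and 190.0 in RD no tumour. H2-Ab1 stood at 239, 79.4 and 274 CPM in WD tumour, 178 in RD tumour 2, and 135, 265 and 210.0 in RD no tumour. H2-Eb1 stood at 253, 75.4 and 334 CPM in WD tumour, 221 in RD tumour 2, and 168, 328 and 165 in RD no tumour. Again WD tumour 2 was lowest, and WD tumour and RD no tumour overlapped throughout. H2-DMb1 stood at 52.2, 37.7 and 82.2 CPM in WD tumour, 66.5 in RD tumour 2, and 64.5, 86.8 and 15.0 in RD no tumour. H2-DMa gave 5.001 to 27.4 CPM and H2-Oa, the inhibitor subunit known from B cells, 3.22 to 32.9 CPM.

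Against nuclei with no gate marker of the same mouse, the mean log2 difference in B-like nuclei was 4.52 ± 1.36 for Ciita (SD, n = 7 mice), 4.84 ± 2.06 for H2-Oa, 3.94 ± 1.38 for H2-DMb1, 3.28 ± 1.70 for Cd74 and 1.21 ± 0.87 for H2-DMa. The H2-Oa value rests on 21 UMIs in B-like nuclei and 3 in nuclei with no marker, so its size depends on the 0.5 UMI added. H2-Aa, H2-Eb1, Cd74, Ciita, H2-DMb1 and H2-Oa were higher in 7 of 7 mice, H2-Ab1 and H2-DMa in 6 of 7. In exact two-sided sign-flip tests over mice, 20 of 40 comparisons between a class and the nuclei with no marker had an unadjusted p under 0.05, and 0 passed after adjustment over all of them (lowest adjusted p = 0.0658 in these exact tests). With 7 mice the exact test cannot go below 0.0156, and with 8 mice not below 0.00781. With the 2 mice of the lipid-associated macrophage-like class it cannot go below 0.5, so these comparisons could not pass. Among the 20, monocyte-like H2-Oa rested on 2 UMIs. Under 4 of the alternatives between 12 and 31 comparisons passed. Against T/NK-like nuclei, another reference class, the B-like level was higher in 7 of 7 mice for 7 of the 8 members, and no comparison passed (lowest adjusted p = 0.0694 in exact sign-flip tests).

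Monocyte-like nuclei ranged widely between mice. Cd74 stood at 62.2 and 688 CPM in WD tumour 2 and 3, 94.5 and 97.5 in RD tumour, and 126, 306 and 27.7 in RD no tumour, with 2 UMIs behind the lowest value. H2-Aa stood at 38.9 and 599 CPM in WD tumour 2 and 3, 29.5 and 97.5 in RD tumour, and 67.0, 118 and 13.9 in RD no tumour. WD tumour 3, with 35 monocyte-like nuclei, was the highest mouse for both. H2-Ab1 stood at 33.7 and 439 CPM in WD tumour 2 and 3, 53.2 and 48.8 in RD tumour, and 69.9, 168 and 13.9 in RD no tumour. H2-Eb1 stood at 41.4 and 489 CPM in WD tumour 2 and 3, 23.6 and 107 in RD tumour, and 67.8, 227 and 13.9 in RD no tumour. Ciita ranged from 0 to 109.7 CPM over the 7 mice. WD tumour 1 had 14 nuclei and is left out.

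None of the 4 members that passed the low-count filter in monocyte-like nuclei (Cd74 and the 3 chains) separated the groups, and 0 of 3220 genes were called in each comparison (24 to 135 at an unadjusted p under 0.05). The median of these 4 was 1.30 on the log2 scale in WD tumour against RD no tumour and 2.03 in WD tumour against RD tumour. Both turned without WD tumour 3, to -1.32 and -0.57, so the sign of these medians rests on that mouse. Without RD tumour 1 the median of WD tumour against RD tumour was 1.86. RD tumour against RD no tumour gave -0.70, and -0.69 without RD tumour 1.

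In Kupffer-like nuclei, 2 of the 3 WD tumour mice lay far above the rest for the chains and Cd74. Cd74 stood at 281, 85.4 and 237 CPM in the WD tumour mice, 27.8 and 75.5 in the RD tumour mice, and 104, 90.4 and 19.4 in RD no tumour. H2-Aa stood at 158, 38.5 and 152 CPM in the WD tumour mice, 27.8 and 40.2 in the RD tumour mice, and 47.5, 36.5 and 11.7 in RD no tumour. H2-Ab1 stood at 165, 46.9 and 135 CPM in the WD tumour mice, 34.8 and 34.7 in the RD tumour mice, and 49.8, 47.9 and 8.42 in RD no tumour. For all 3 genes WD tumour 1 and 3 were the highest mice, and WD tumour 2 lay within the range of the RD no tumour group.

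The pattern of H2-Eb1 was alike, with 138, 27.8 and 103 CPM in the WD tumour mice, 55.7 and 35.8 in the RD tumour mice, and 45.5, 53.4 and 5.83 in RD no tumour. Here WD tumour 2 was below both RD tumour mice. Ciita stood at 51.8, 19.8 and 32.5 CPM in the WD tumour mice, 0 and 8.26 in the RD tumour mice, and 16.6, 19.6 and 5.18 in RD no tumour. It was the only Kupffer-like member for which every WD tumour mouse was above every RD no tumour mouse, by a margin of 19.8 against 19.6 CPM between the nearest mice.

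H2-DMb1 stood at 38.6, 16.8 and 29.02 CPM in the WD tumour mice, 0 and 6.61 in the RD tumour mice, and 21.1, 14.7 and 7.78 in RD no tumour. H2-DMa stood at 16.3, 14.1 and 18.5 CPM in the WD tumour mice, 13.9 and 12.7 in the RD tumour mice, and 17.9, 14.2 and 10.4 in RD no tumour. H2-DMa thus stayed within a narrow range in all 8 mice, while H2-DMb1, the other chain of the same dimer, did not. H2-Oa had 7 UMIs in all Kupffer-like nuclei. RD tumour 1 had 68 Kupffer-like nuclei with 23 UMIs of the 8 genes, and its 0 UMIs of Ciita and H2-DMb1 allow a level of up to 20.9 CPM each (3 counts of the class total in this library, counting error only). When the neutrophil class was left out of the gate, RD tumour 1 had 374 Kupffer-like nuclei with 114 CPM of Cd74, 14 CPM of H2-DMb1 and 1 UMI of Ciita.

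**Figure D3:**
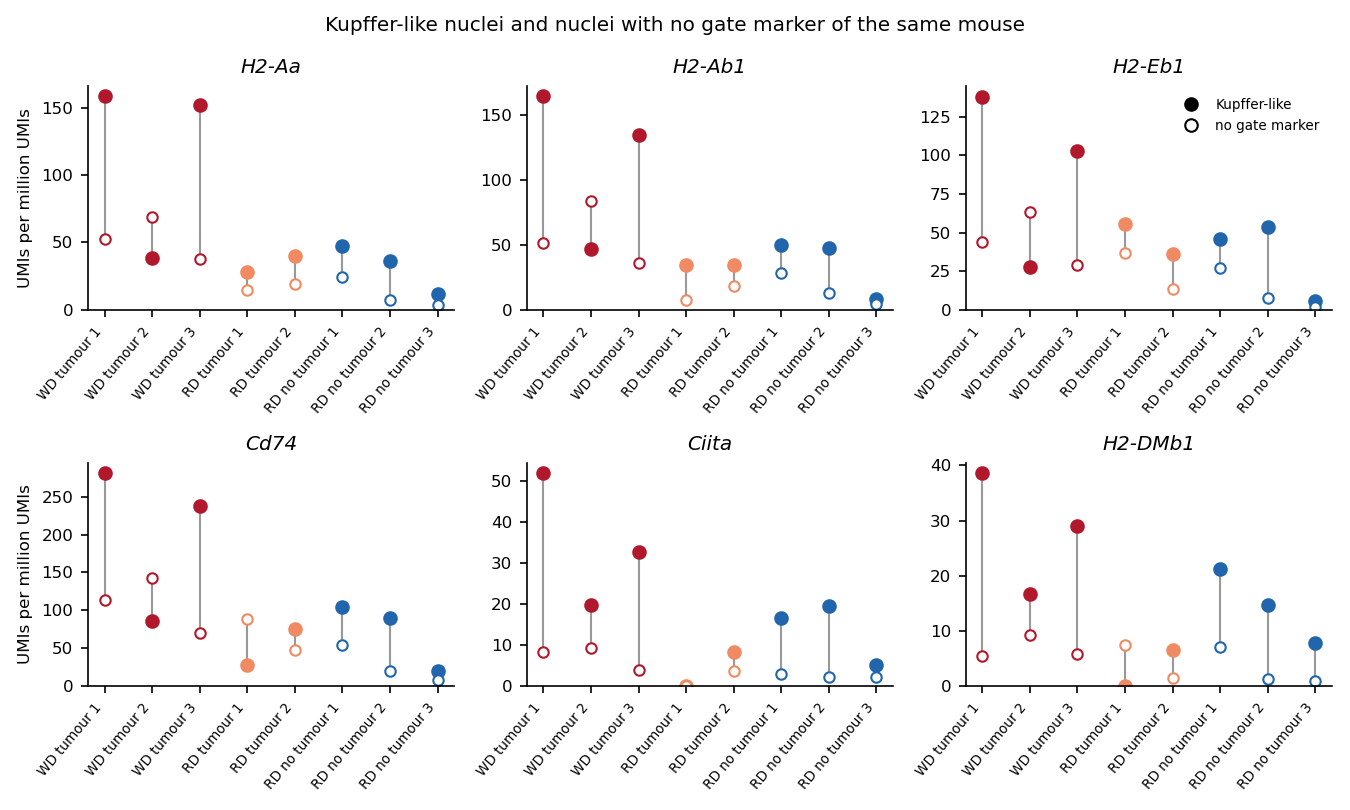
For 6 of the genes, CPM (vertical axis, from 0) in Kupffer-like nuclei (filled points) and in nuclei with no gate marker of the same mouse (open points, joined by a line), for the 8 mice coloured by group. WD tumour 1 and WD tumour 3 stand above the other mice for the chains, Cd74 and Ciita, and in WD tumour 2 the open point is above the filled one for the chains and Cd74.

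In the fit, 7 of the 8 members passed the low-count filter in Kupffer-like nuclei (H2-Oa did not), and 0 of 12922 genes were called in each comparison (289 to 893 at an unadjusted p under 0.05). The members among the latter were Ciita, H2-Ab1, H2-Aa and Cd74 in WD tumour against RD no tumour and Ciita, H2-DMb1, H2-Aa and Cd74 in WD tumour against RD tumour. DESeq2 called 2 to 19 genes and no member. All 7 fold changes were positive in WD tumour against RD no tumour, with a median of 1.34 on the log2 scale against a median near 0 over all genes. Leaving out a mouse moved that median between 0.85 (without WD tumour 1) and 1.77 (without WD tumour 2). Ciita was 1.28 higher (SE 0.55, edgeR adjusted p = 1.00), with means of 34.7 ± 16.1 CPM in WD tumour (SD, n = 3) and 13.8 ± 7.61 CPM over the RD no tumour mice (SD, n = 3). It was 1 of 7 without overlap, against 4.48% of all genes tested.

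WD tumour against RD tumour separated 5 of the 7 members in Kupffer-like nuclei, all higher in WD tumour, against 12.4% of all genes. The differences on the log2 scale were 2.32 for Ciita (SE 0.79, edgeR adjusted p = 0.679), 2.32 for H2-DMb1 (SE 0.71, edgeR adjusted p = 0.679), 1.85 for Cd74 (SE 0.80, adjusted p = 0.715), 1.81 for H2-Ab1 (SE 0.80, adjusted p = 0.721) and 0.39 for H2-DMa (SE 0.40, adjusted p = 0.905). RD tumour 1, with 0 UMIs of Ciita and H2-DMb1 in 68 nuclei, enters all 5, and without it they were 2.05, 2.07, 1.43, 1.74 and 0.37. The median over 7 members was 1.81, and it was 1.54 without RD tumour 1. With the neutrophil class left out of the gate, which gives RD tumour 1 more nuclei, the median was 1.45 and H2-DMa turned to -0.22. In that gate only Ciita and H2-DMb1 stayed without overlap. RD tumour 1 then had 114 CPM of Cd74, 49.4 of H2-Ab1 and 25.8 of H2-DMa, above the 86.1, 46.2 and 14.5 CPM of WD tumour 2. RD tumour against RD no tumour separated H2-DMb1 only, 1 of 7, at -1.43 (SE 0.71, edgeR adjusted p = 0.874), where 10.2% of all genes were lower without overlap. Without RD tumour 1 this was -1.20, and with the neutrophil class left out -0.60.

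The level in nuclei with no gate marker moved with the same groups. In nuclei with no gate marker the 8 genes summed to 287, 384 and 189 CPM in the WD tumour mice, 155 and 114 in the RD tumour mice, and 158, 55.7 and 29.4 in RD no tumour. Every WD tumour mouse was above every other mouse there. For the same sum in Kupffer-like nuclei this did not hold, as WD tumour 2 (250 CPM) was below RD no tumour 1 (303) and RD no tumour 2 (277). Cd74 in these nuclei stood at 114, 143 and 70.0 CPM in the WD tumour mice, 88.5 and 48.0 in the RD tumour mice, and 54.1, 20.03 and 8.04 in RD no tumour. As a ratio to the nuclei with no marker, the summed Kupffer-like level was 2.96, 0.650 and 3.74 in the WD tumour mice, 1.03 and 1.89 in the RD tumour mice, and 1.92, 4.97 and 2.34 in RD no tumour. On that scale the groups overlapped, and the highest mouse was RD no tumour 2. The part of the level in these nuclei in the Kupffer-like difference was not tested. Median mitochondrial shares of the Kupffer-like nuclei were 5.15% and 5.24% in WD tumour 1 and 3 and 1.02% to 2.91% in the other 6 mice, and their part was not tested. With at most 5% mitochondrial UMIs the median member difference to RD no tumour was 1.12. The whole Kupffer marker list (6 genes) summed to 176 to 536 CPM per library.

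Within Kupffer-like nuclei, the mean log2 difference to nuclei with no marker was 1.77 ± 1.10 for Ciita (SD, n = 8 mice, higher in 7), 1.76 ± 1.63 for H2-DMb1 (higher in 7), 1.20 ± 0.98 for H2-Aa (higher in 7) and 0.72 ± 1.27 for Cd74 (higher in 6). Only H2-DMa was higher in 8 of 8 mice, by 0.95 ± 0.75, the smallest p that 8 mice allow (exact two-sided sign-flip p = 0.00781, adjusted p = 0.0658). Against T/NK-like nuclei, the other reference class, Kupffer-like H2-DMa was higher in only 2 of 7 mice. In that comparison H2-Aa was higher in 4, Cd74 and Ciita in 5 and H2-DMb1 in 7 of the 7 mice.

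Endothelial-like nuclei had a summed class II level of 0.929, 0.455 and 0.982 times that of the nuclei with no marker in the WD tumour mice, 1.00 and 1.25 times in the RD tumour mice, and 1.26, 2.43 and 1.69 times in the RD no tumour mice. By member, 2 of 7 (H2-Aa and H2-Ab1) lay below the nuclei with no marker in every WD tumour mouse and above them in every RD tumour mouse, beside 1.51% of the 15329 genes tested, and 3 of 7 (with Cd74) did so against the RD no tumour mice, beside 1.42%. Cd74 stood at 96.8, 58.0 and 67.6 CPM in the WD tumour mice, 59.3 and 50.04 in the RD tumour mice, and 65.2, 52.5 and 15.1 in RD no tumour. H2-Ab1 stood at 49.4, 30.04 and 31.7 CPM in the WD tumour mice, 25.2 and 21.4 in the RD tumour mice, and 30.6, 22.4 and 8.31 in RD no tumour. RD no tumour 3 was the lowest mouse for both, as it was in whole libraries. H2-Aa stood at 44.2, 26.3 and 30.8 CPM in the WD tumour mice, 19.0 and 21.2 in the RD tumour mice, and 31.1, 19.3 and 6.10 in RD no tumour. H2-Eb1 stood at 46.4, 27.6 and 31.7 CPM in the WD tumour mice, 21.8 and 22.3 in the RD tumour mice, and 37.4, 23.5 and 6.49 in RD no tumour. The chains thus separated WD tumour from RD tumour, but not from RD no tumour. With the neutrophil class left out of the gate, RD tumour 1 had 4163 endothelial-like nuclei and the separation from it was narrow. RD tumour 1 and WD tumour 2 then had 26.1 and 26.3 CPM of H2-Aa, 29.7 and 30.5 of H2-Ab1, and 26.9 and 27.4 of H2-Eb1.

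Ciita in endothelial-like nuclei stood at 14.5, 9.95 and 10.2 CPM in the WD tumour mice, 1.68 and 11.4 in the RD tumour mice, and 11.5, 3.31 and 3.89 in RD no tumour. H2-DMa stood at 7.86, 12.6 and 7.69 CPM in the WD tumour mice, 16.8 and 9.75 in the RD tumour mice, and 11.1, 9.66 and 7.92 in RD no tumour. H2-DMb1 stood at 6.88, 9.95 and 6.11 CPM in the WD tumour mice, 11.5 and 5.30 in the RD tumour mice, and 11.3, 4.42 and 1.82 in RD no tumour. All 3 overlapped between groups. In WD tumour against RD tumour 3 of the 7 members tested did not overlap, against 11.3% of all genes: H2-Aa at 0.77 on the log2 scale (SE 0.59, edgeR adjusted p = 0.670), H2-Eb1 at 0.70 (SE 0.62, adjusted p = 0.7005) and H2-Ab1 at 0.69 (SE 0.52, adjusted p = 0.667). Of 15329 genes 0 were called in each comparison (307 to 1150 at an unadjusted p under 0.05), and DESeq2 called 13, 55 and 42 and no member. Without RD tumour 1 the differences were 0.72, 0.71 and 0.83 in the same order. Against nuclei with no marker, mean log2 differences ran from -0.60 (H2-Oa, on 15 UMIs against 3, so that the 0.5 UMI added weighs on it) to 0.70 (Ciita). H2-DMb1 was higher in 7 of 8 mice, by 0.66 ± 0.71 (SD, exact two-sided sign-flip p = 0.0156, adjusted p = 0.0658).

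B-like nuclei did not separate WD tumour from RD no tumour, the only comparison with enough mice. Of the 6 members tested 1 was positive, the median was -0.04 on the log2 scale against 0.07 over all genes, and 0 of 6855 genes were called (133 at an unadjusted p under 0.05, no member among them; DESeq2 called 0). Mean Cd74 was 487 ± 269.9 CPM in WD tumour (SD, n = 3) and 482 ± 144 in RD no tumour (SD, n = 3), and mean Ciita was 122 ± 93.0 and 105 ± 28.4 CPM. The fitted differences carried an SE of 0.52 for Cd74 and 0.57 for Ciita on the log2 scale. In nuclei with at most 5% mitochondrial UMIs the median was -0.61.

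**Figure D4:**
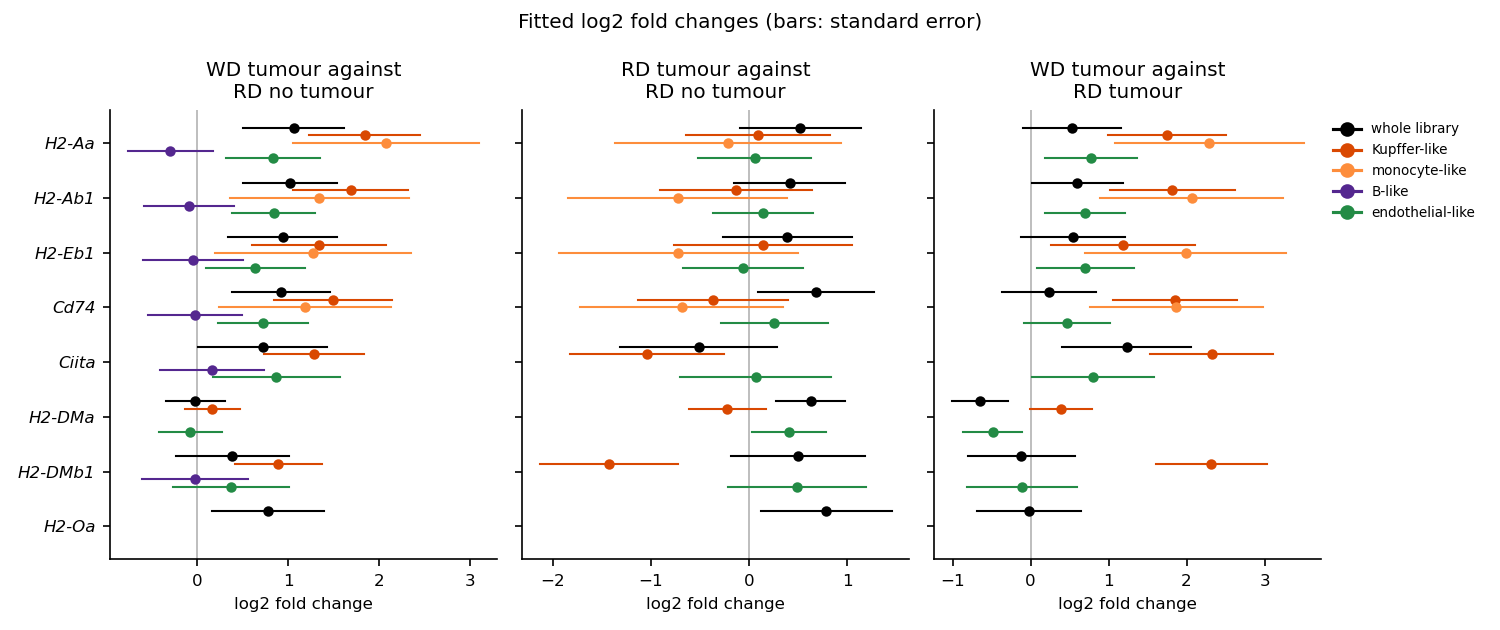
Fitted log2 fold changes of the members (rows) in the 3 comparisons (panels), with a colour for the whole library and for each gated class and bars of 1 standard error. Kupffer-like and monocyte-like values lie right of 0 in both comparisons with WD tumour, B-like values lie near 0, and no value passed the adjusted threshold.

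Dendritic-like nuclei, few as they were, had the highest Ciita. Ciita stood at 139, 232 and 284 CPM in WD tumour, 482 in RD tumour 2, and 699.6, 519.7 and 304 in RD no tumour, on 3 to 25 UMIs a mouse. Cd74 stood at 301, 367 and 545 CPM in WD tumour, 1004 in RD tumour 2, and 641, 1188 and 1318 in RD no tumour. For both genes the 3 WD tumour mice were the lowest of the 7. H2-Aa stood at 116, 232 and 511 CPM in WD tumour, 602 in RD tumour 2, and 525, 619 and 1115 in RD no tumour. H2-Ab1 stood at 185, 309 and 545 CPM in WD tumour, 923 in RD tumour 2, and 408, 1262 and 608 in RD no tumour. H2-Eb1 stood at 92.7, 232 and 432 CPM in WD tumour, 763 in RD tumour 2, and 612, 916 and 1013 in RD no tumour. Of these 5 members, 4 were lower in every WD tumour mouse than in every RD no tumour mouse (H2-Ab1 overlapped), against 10.8% of the 1193 genes with at least 50 UMIs in these nuclei, a minimum set after the values were seen. Only WD tumour 3 had 20 nuclei, so no test was made at that minimum. With a minimum of 10 nuclei, set after the counts were seen, 5 members were tested in WD tumour against RD no tumour, all 5 were lower, with a median of -1.18 on the log2 scale, and 0 were called (lowest edgeR adjusted p = 0.476).

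Pooled over mice, the share of nuclei with at least 1 UMI of any member was highest in dendritic-like and B-like nuclei. It was 88.0% of dendritic-like nuclei (Wilson 95% interval 80.9 to 92.7%, counting error only), 78.9% of B-like (75.8 to 81.6%), 42.0% of Kupffer-like (40.5 to 43.5%), 38.9% of monocyte-like (35.8 to 42.2%) and 29.3% of endothelial-like nuclei (28.5 to 30.2%), against 29.4% of T/NK-like nuclei and 19.3% of nuclei with no marker. RD no tumour 1 gave 560 of the 884 monocyte-like nuclei. Of the mice with at least 20 such nuclei, only RD no tumour 1 had a higher share in Kupffer-like nuclei (44.6 against 37.9%). Lipid-associated macrophage-like nuclei had 78.3% in WD tumour 1 (23 nuclei) and 50.6% in WD tumour 3 (89 nuclei). Median depth per mouse was 1138 to 3158 UMIs in B-like nuclei, 1281 to 2876 in Kupffer-like, 977 to 1730 in T/NK-like and 808 to 4330 in nuclei with no marker. Each nucleus was therefore also thinned to 500 UMIs, at which none was lost. Thinned shares were 66.7% in dendritic-like, 49.5% in B-like, 16.4% in Kupffer-like (15.3 to 17.5%), 15.8% in monocyte-like, 11.8% in T/NK-like (10.0 to 13.9%) and 9.37% in nuclei with no marker (8.77 to 10.0%). These pooled intervals leave out the spread between mice. By mouse, the share was above that of T/NK-like nuclei in 7 of 7 mice for B-like nuclei. For Kupffer-like nuclei this held in 5 of 7 mice and for monocyte-like nuclei in 4 of 6. The thinned share in endothelial-like nuclei was 8.83% (8.31 to 9.38%) over all mice. By mouse it was below that of T/NK-like nuclei in 6 of 7 mice (WD tumour 1 had 15.7 against 13.2%), and is not read as expression. Against nuclei with no marker it was lower in the 3 WD tumour mice (15.7, 10.6 and 10.4 against 19.2, 23.7 and 15.0%) and higher in the 5 reversed mice (2.72 to 10.6 against 2.15 to 9.69%). Thinned Kupffer-like shares ran from 2.95% to 35.3% between mice. They were above the monocyte-like shares only in WD tumour 2 (15.2 against 14.6%) and RD no tumour 1 (15.6 against 14.1%), among mice with at least 20 monocyte-like nuclei.

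Ciita was detected most often in dendritic-like and B-like nuclei. Thinned, it had a UMI in 16.2% of dendritic-like nuclei, 7.82% of B-like, 1.81% of monocyte-like and 1.03% of Kupffer-like nuclei, against 0.379% of T/NK-like nuclei and 0.298% of nuclei with no marker; endothelial-like nuclei had 0.436%. In lipid-associated macrophage-like nuclei the thinned Ciita share was 4.35% in WD tumour 1 (23 nuclei) and 4.49% in WD tumour 3 (89 nuclei). Thinned, Cd74 had a UMI in 24.3% of B-like and 6.69% of Kupffer-like nuclei against 4.45% of T/NK-like nuclei and 3.95% of nuclei with no marker. H2-Oa had a UMI in 21 of 767 B-like nuclei (2.74%, unthinned), 5 of 117 dendritic-like (4.27%), 7 of 4261 Kupffer-like (0.164%) and 3 of 8395 nuclei with no marker (0.0357%).

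No pair of neighbouring classes in the order of levels passed the test for any member. Ordered by mean log2 level, 7 members ran B-like, monocyte-like and Kupffer-like, followed by stellate/fibroblast-like, T/NK-like and endothelial-like nuclei in an order that varied between members. Nuclei with no gate marker came last for 6 of these 7, and stellate/fibroblast-like nuclei for Cd74. For H2-Oa no order is read, as T/NK-like nuclei held 0 UMIs, monocyte-like 2, Kupffer-like 7, endothelial-like 15 and B-like 21. With so few UMIs, its log2 level depends on the 0.5 UMI added and on the class total. None of the 48 pairs of neighbours passed in exact sign-flip tests (lowest adjusted p = 0.281). B-like nuclei were above monocyte-like nuclei in 6 of 6 mice for Ciita (mean log2 difference 1.45 ± 0.88, SD) and H2-Oa (1.58 ± 0.95, with 2 UMIs in monocyte-like nuclei). Monocyte-like nuclei were above Kupffer-like nuclei in 7 of 7 mice for H2-Aa (0.92 ± 0.78).

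Although B-like and dendritic-like nuclei had the highest levels, most class II UMIs lay elsewhere. Of all UMIs of the 8 genes, B-like nuclei held 3.57, 5.34 and 5.76% in the WD tumour mice, 0.0687 and 12.5% in the RD tumour mice, and 4.97, 11.3 and 14.8% in RD no tumour. Kupffer-like nuclei held 14.9, 13 and 13.4% in the WD tumour mice, 0.316 and 7.21% in the RD tumour mice, and 13.7, 15.4 and 7.28% in RD no tumour. Their shares of the UMIs of all genes were 0.0462 to 2.24% for B-like and 0.418 to 11.7% for Kupffer-like nuclei, so that B-like nuclei held more of the class II UMIs than of all UMIs in 8 of 8 mice and Kupffer-like nuclei in 7 (RD tumour 1 excepted). Endothelial-like nuclei held 19.3, 16.8 and 13.6% in the WD tumour mice, 7.63 and 24.8% in the RD tumour mice, and 12.4, 14.8 and 26.3% in RD no tumour. Their share of all UMIs was 10.4 to 34.7%, and in 7 of 8 mice (RD no tumour 3 excepted) it was above their share of the class II UMIs. Dendritic-like nuclei held at most 5.86% (RD no tumour 2). In RD tumour 1 the neutrophil-like nuclei held 70.8% of the UMIs of the 8 genes, and in RD no tumour 1 14.2%, where they held 63.4 and 15.4% of the UMIs of all genes. Ambiguous nuclei and those with a single marker held 19.5 to 45.8%. For H2-Oa the median share of B-like nuclei over mice was 17.6%, the highest of the 8 genes, against 4.52% for H2-Ab1.

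**Figure D5:**
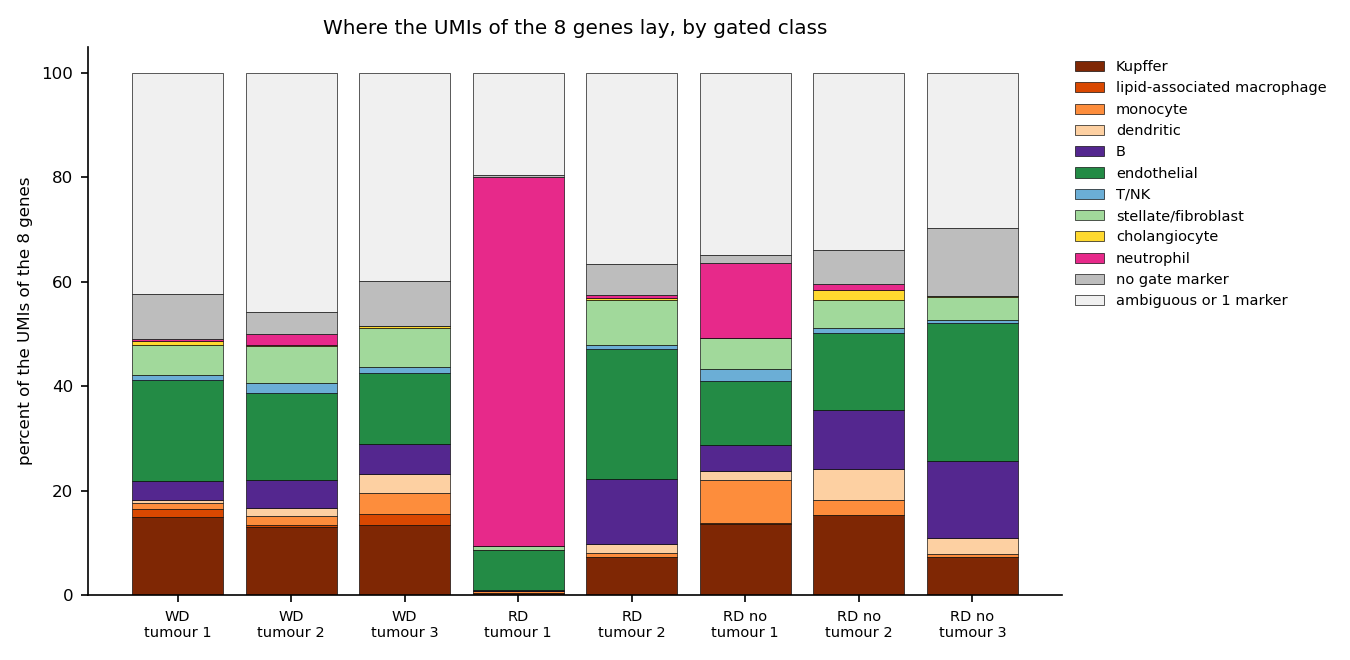
Stacked bars give, for each of the 8 mice, the percent of all UMIs of the 8 genes (vertical axis, 0 to 100) that lay in each gated class. Neutrophil-like nuclei fill most of the bar of RD tumour 1, while in each of the other 7 mice the nuclei that are ambiguous or have a single marker hold the largest part.

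RD tumour 1 had a different balance of members from the other libraries. Per 100 UMIs of Cd74 it had 1.35 UMIs of Ciita, where the other mice had 13.3, 15.2 and 15.5 in WD tumour, 15.1 in RD tumour 2, and 15.0, 16.1 and 27.8 in RD no tumour. Pooled over mice this ratio was 54.8 in dendritic-like nuclei, 45.7 in lipid-associated macrophage-like, 21.9 in monocyte-like, 20.8 in B-like, 17.5 in Kupffer-like and 15.9 in endothelial-like nuclei, against 8.41 in nuclei with no marker. Without RD tumour 1 these values were 54.8, 45.7, 22.9, 20.9, 17.5, 17.3 and 8.54. In neutrophil-like nuclei the ratio was 0.938 in RD tumour 1, while WD tumour 2 had 8.89 and RD no tumour 1 had 9.48. The ratio compares libraries and classes, and says nothing of the 2 genes' relative transcript levels. H2-DMa made up 9.54% of the UMIs of the 8 genes in RD tumour 1 and 18.5% in RD no tumour 3, against 3.18 to 6.14% in the other 6 mice. Neutrophil-like nuclei of RD tumour 1 had 237 CPM of the 8 genes, beside 155 CPM in its 131 nuclei with no marker.

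Lipid-associated macrophage-like nuclei, gated on Trem2, Gpnmb, Mmp12 and Atp6v0d2, reached 20 only in WD tumour 1 (23 nuclei) and WD tumour 3 (89 nuclei). There the 8 genes summed to 971 and 356 CPM, with 124 and 51.3 CPM of Ciita and 271 and 96.9 CPM of Cd74. In the same mice Kupffer-like nuclei had 51.8 and 32.5 CPM of Ciita, and B-like nuclei 96.9 and 225 CPM. With 2 mice of 1 group no comparison between groups was possible.

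No listed gene of the surrounding pathway passed edgeR's test, which called 0% of all genes in these comparisons. DESeq2 called 1, the protease gene Ctsl, lower in WD tumour than in RD tumour in whole libraries (-1.27 on the log2 scale, DESeq2 adjusted p = 0.0453, against -1.23 and an adjusted p of 0.590 in edgeR, and -0.80 without RD tumour 1 in edgeR). In whole libraries, WD tumour against RD no tumour gave median log2 fold changes of 0.05 for 10 genes of class II transcription (Rfx5, Rfxap, Rfxank, Nfya, Nfyb, Nfyc, Creb1, Spi1, Irf4 and Irf8), 0.06 for the 7 tested of 8 interferon gamma signalling genes, 0.09 for 9 genes of antigen processing and costimulation and 0.10 for 9 class I genes. With edgeR none of them was called in either direction, in whole libraries or in Kupffer-like nuclei, in any of the 3 comparisons. The medians in Kupffer-like nuclei were 0.08 to 0.14 in the same comparison, beside 1.34 for the members. In WD tumour against RD tumour, the class I genes had a whole-library median of -0.53, with 1 of 9 positive, and it turned to 0.52, with 9 of 9 positive, without RD tumour 1. That library had 1888 CPM of H2-D1 and 1724 CPM of H2-K1, both class I heavy chains, against medians over the 8 mice of 377 and 677 CPM. The median of the 8 members was 0.38, and 0.48 without that mouse.

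Of the other class II genes, 3 of 4 listed symbols matched. H2-Ob, the beta chain that pairs with H2-Oa, had a median of 88.0 CPM over the B-like nuclei of 7 mice (15.9 to 143), against 2.11 in Kupffer-like nuclei and 1.14 in nuclei with no marker. The processing genes March1, a ubiquitin ligase that takes class II from the surface, and Ctss, the protease that trims Cd74, had medians of 586 and 289.8 CPM in Kupffer-like nuclei and of 723 and 157 CPM in B-like nuclei.

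The genes whose level across the 10 classes and the nuclei with no marker was most like that of the summed members were found by Pearson correlation of mean log2 CPM, over 11 points and 16896 genes. The closest were Il4i1 (r = 0.951), Gm3435 (0.948), Cd83 (0.946), 1110059E24Rik (0.943) and Rfx5 (0.939), followed by Mars2, Klhl11, Klhl18, Rabep2 and Rbbp5 (0.931 to 0.921). Cd83, a surface protein of activated antigen-presenting cells, had a mean of 90.9 CPM in dendritic-like, 53.6 in B-like and 20.8 in Kupffer-like nuclei, against 1.69 in nuclei with no marker. The dendritic-like point of every gene is a single mouse, WD tumour 3, with 8 UMIs of Cd83 and 1 UMI each of Rfx5, Mars2 and Klhl11. Rfx5 encodes a subunit of the RFX complex. Its mean was 11.3 CPM in B-like and 8.50 in lipid-associated macrophage-like nuclei. In Kupffer-like (5.94) and monocyte-like nuclei (2.77) it was below the 6.29 CPM of nuclei with no marker, unlike the summed members. The members' own correlations with their sum were 0.892 for H2-DMa and 0.963 to 0.995 for the other 6 with enough UMIs. Points share libraries and depth, so these values describe likeness only.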

How the data were processed

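Nuclear RNA of 8 mouse livers was sequenced by the submitters as 1 Chromium 3′ v3.1 library per mouse. The authors deposited raw UMI counts per gene and barcode, made with Cell Ranger 7.0.0 against mm10 per the submitters' processing notes; the gene annotation, whether intronic reads were counted and how cells were called are not given in the sources used here. Barcodes with at least 300 detected genes were kept (79446 of 80575). Counts were summed per mouse over all kept nuclei and over each gated class, and CPM is UMIs per 1000000 UMIs of that sum. The mouse was the replicate, and groups came from the labels. Groups were compared with edgeR 4.0.16 (R 4.3.3; TMM, filterByExpr, quasi-likelihood test, 1 fit of the 3 groups to every mouse with at least 20 nuclei, Benjamini-Hochberg over all genes tested, threshold 0.05), tested on simulated data. The SE is the fold change divided by the root of F. Levels of classes within a mouse were compared with exact two-sided sign-flip permutation tests on log2 CPM (0.5 UMI added). Doublets were left in, and the highest Scrublet scores (scanpy 1.11.5) were left out as an alternative.

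All members are named. In a class a member with at least 100 UMIs is given by mouse. Fold changes are given where 2 groups do not overlap or where the test is passed, and listed pathway genes as counts with a few of the highest CPM named. Members, lists and tests were chosen with earlier results of these data known. The alternatives were DESeq2 with its size factors, no TMM factor, no low-count filter, only the compared groups, a replicate block, at least 500 genes, at least 3 markers, at most 5% mitochondrial UMIs, 2 UMIs added, UMIs per nucleus, and each mouse left out. Leaving out the neutrophil class and a minimum of 10 nuclei were chosen after seeing the data. The label numbers do not pair mice across groups. Total counts of 17948627 to 34363108 UMIs set the precision of the rare members. Reads, sequence variants and the tumour content of the pieces were not analysed here.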

Additional observations from a re-analysis of the deposited data

Results flagged for a closer look

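In endothelial-like nuclei, 3 members lay below the nuclei with no gate marker of the same mouse in every WD tumour mouse, and above them in every mouse of a reversed-diet group. The share of all genes with the same pattern was 1.51% against RD tumour and 1.42% against RD no tumour. For H2-Aa the mean log2 difference was -0.65 in WD tumour (n = 3), 0.10 in RD tumour (n = 2) and 0.83 in RD no tumour (n = 3), so that this difference in WD tumour changed by -0.75 and -1.48 against these groups. For H2-Ab1 it was -0.57, 0.72 and 0.58, so that WD tumour differed by -1.29 from RD tumour and by -1.16 from RD no tumour. Cd74 differed by -1.38 between WD tumour (-0.53) and RD no tumour (0.84). These differences to the reference had opposite signs in the groups, and the difference between groups was not tested. The endothelial-like level itself was not lower in WD tumour. Mean H2-Aa was 33.8 CPM there, 20.1 in RD tumour and 18.8 in RD no tumour. In nuclei with no gate marker mean H2-Aa was 52.9, 16.9 and 11.7 CPM in the same order. The level in nuclei with no gate marker was itself higher in every WD tumour mouse than in every other mouse for the summed members, as given above, and its part in these differences was not tested.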

How the results depend on the processing

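In every comparison and under every alternative run, the number of members called between groups was 0, except in whole libraries without RD tumour 2. In that fit RD tumour 1 was the only RD tumour mouse. Ciita was called there in both RD tumour against RD no tumour and WD tumour against RD tumour. These calls are not read, as a single mouse gives its group no spread. Comparisons of a class with the nuclei with no gate marker that passed numbered 0 at the settings used, 14 with at least 3 markers, 31 in UMIs per nucleus, 13 with at least 500 genes and 12 without the neutrophil class. H2-DMa in Kupffer-like nuclei, WD tumour against RD tumour, changed from 0.39 to -0.22 on the log2 scale without the neutrophil class; the cause was not tested. Same-numbered mice did not deviate together (correlations of -0.53 to 0.44). With the replicate number as a replicate block, 0 members were called, and the median member difference in WD tumour against RD no tumour was 1.00 in whole libraries and 1.49 in Kupffer-like nuclei. At this depth H2-Oa, with 103 UMIs in all, could not be compared between groups within classes.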

Other observations

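Cholangiocyte-like nuclei, gated on the bile duct genes Pkhd1, Krt19, Krt7, Epcam and Cftr, were too few for a comparison but held a single mouse with high class II. In RD no tumour 2, 17 nuclei held 61 UMIs of the 8 genes, or 1101 CPM, with 415 CPM of Cd74, 271 CPM of H2-Ab1 and 235 CPM of H2-Aa and 0 UMIs of Ciita. In the other 7 mice the same sum was 31.96 to 386 CPM on 2 to 64 nuclei. Nuclei with no gate marker of RD no tumour 2 had 55.7 CPM. How these UMIs are spread over the 17 nuclei was not examined.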
